A study of Mus musculus with 2 samples.

Results

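The 10 genes of metal handling described here were followed through single-cell RNA-seq libraries of mouse liver, in each cell class that marker genes could set apart. They are Mt1 and Mt2 (metallothioneins), Fth1 and Ftl1 (ferritin), Trf and Cp (plasma carriers), Tfrc and Slc39a14 (uptake), Slc40a1 (export) and Hmox1 (haem breakdown). The genes were chosen by name, and all 10 were among the 31053 genes of the count table.

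The control library came from C57BL/6 liver of the genotype LaptTA;WT and the tetYAP 4W library from C57BL/6 liver of the genotype LaptTA; tetYAP, in which a constitutively active mutant YAP had been induced for 4 weeks. Both genotypes carry the tetracycline-controlled transactivator tTA, which the LAP promoter drives in the liver, and per the study's methods the transgene is silent on doxycycline food and switched on by a regular diet. Hepatocytes were isolated by perfusion and profiled by droplet-based 3′ sequencing with unique molecular identifiers (UMIs). Each group holds 1 library, so no difference was tested, no p-value is given, and every interval below is a 95% interval of counting error only. The comparison asks how iron and metal genes differ after 4 weeks of YAP induction, and in which cells.

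Iron reaches cells on transferrin (Trf), which the liver secretes and which binds the transferrin receptor (Tfrc), while iron not bound to transferrin enters hepatocytes through the metal transporter ZIP14 (Slc39a14). Iron is stored in shells of ferritin heavy and light chains (Fth1, Ftl1) and leaves through ferroportin (Slc40a1), the only known iron exporter, which the liver hormone hepcidin (Hamp) removes from the cell surface. Kupffer cells, the resident macrophages of the liver, take up aged red cells, open haem with haem oxygenase (Hmox1) and return the iron through ferroportin, where the plasma ferroxidase ceruloplasmin (Cp) helps load it onto transferrin. Metallothioneins (Mt1, Mt2) are small proteins rich in cysteine that bind zinc and copper, and they are induced by metals, glucocorticoids and inflammation.

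Mt1 and Mt2 lie side by side on chromosome 8, Mt2 at 94172618 to 94173567 and Mt1 at 94178883 to 94180327 (RefSeq, GRCm38.p6), with 5315 bases between them. Their promoters are shown because both genes moved in the same direction. The metal response element bound by the zinc sensor MTF1 was searched as TGCACNC and TGCGCNC on both strands. RefSeq windows of 300 bases, from 250 before to 50 after an annotated start, were given for 6 of the 10 members. The Mt1 window held 3 matches, of which 1 lay before the start, and the Mt2 window held 4, of which 3 lay before it. The annotated start of the Mt1 window lies inside the gene span given above, so which of its matches count as before the start depends on the start chosen. Of all 32851 such windows 1.97% held 3 or more matches and 0.517% held 4 or more. One Tfrc window held 2 matches that overlap each other, and the windows of Fth1, Ftl1 and Cp held none. The 250 bases before the start are given on the plus strand with the matches in capitals.
Mt1, chr8:94178839-94179088: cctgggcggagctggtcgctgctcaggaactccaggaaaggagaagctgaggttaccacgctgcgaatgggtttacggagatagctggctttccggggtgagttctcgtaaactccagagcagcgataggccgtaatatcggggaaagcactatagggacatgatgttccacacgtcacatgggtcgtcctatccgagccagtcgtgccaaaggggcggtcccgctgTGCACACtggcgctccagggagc
Mt2, chr8:94172368-94172617: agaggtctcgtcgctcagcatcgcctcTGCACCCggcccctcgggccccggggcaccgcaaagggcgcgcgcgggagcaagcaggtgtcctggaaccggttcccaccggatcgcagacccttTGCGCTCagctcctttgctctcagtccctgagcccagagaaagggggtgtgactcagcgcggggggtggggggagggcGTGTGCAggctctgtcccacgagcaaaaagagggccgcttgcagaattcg

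Ferritin, ferroportin and Tfrc mRNAs share the iron-responsive element, a hairpin bound by iron regulatory proteins when iron is scarce. Before the coding sequence it blocks translation, and after it, in Tfrc, it protects the mRNA, so that for the former a UMI count does not report the protein. The element was searched in GENCODE vM1 transcripts as a C, 5 bases, the loop CAGTGN and 5 bases able to pair with the first 5, allowing G with T, on the transcript strand only. Of 55443 transcripts, 0.996% held a match. Fth1, Ftl1 and Slc40a1 each held 1, before the coding sequence, and Tfrc held 4 after it. The sites are given with the bulged C and the loop in capitals.
Fth1: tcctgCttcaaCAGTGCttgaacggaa
Ftl1: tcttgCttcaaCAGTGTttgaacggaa
Slc40a1: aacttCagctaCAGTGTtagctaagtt
Tfrc, bases 3316 to 3342: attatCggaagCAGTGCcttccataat
Tfrc, bases 3695 to 3721: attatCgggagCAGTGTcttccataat
Tfrc, bases 3760 to 3786: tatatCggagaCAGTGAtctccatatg
Tfrc, bases 3807 to 3833: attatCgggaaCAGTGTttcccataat
The ferritin elements were identical at 25 of 27 bases, and each was identical to that of Slc40a1 at 13.

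The control library held 2989 barcodes with a median of 3117 UMIs, and the tetYAP 4W library 1524 barcodes with a median of 4150, and no barcode sequence was shared between them. A barcode was put in a non-hepatocyte class if it held at least 10 UMIs of at least 3 markers of that class alone, and in the hepatocyte class if it held almost none of such markers. The hepatocyte class had 2827 control and 701 tetYAP 4W barcodes, the macrophage class 30 and 288, the endothelial class 63 and 168, and the T, NK and B cells together, called lymphocytes below, 8 and 139. The label hepatocytes fits the markers in part, since UMIs of 12 hepatocyte markers had medians in lymphocyte barcodes (472 in the control, 308 in the tetYAP 4W library) close to those of the hepatocyte class (428 and 360). RNA of hepatocytes was thus present outside hepatocytes, so levels in the hepatocyte class are read beside those of lymphocytes, and the depth of lymphocyte barcodes (medians of 4344 and 4498 UMIs) was above that of the hepatocyte class (3098 and 4005). The libraries also differed in sex as read from their RNA, with 3 Xist and 716 Y-linked UMIs in the control and 4859 and 0 in the tetYAP 4W library, so that sex and YAP induction cannot be told apart. In the hepatocyte class a median of 28.2% of UMIs were mitochondrial in the control against 57.5% in the tetYAP 4W library. Levels as counts per 1e+06 UMIs (CPM) include these in the total.

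In the hepatocyte class, 6 of the 10 genes were 2-fold or more higher in the tetYAP 4W library and 2 were 2-fold or more lower. The higher ones were Mt1, Mt2, Trf, Hmox1, Cp and Slc39a14, and the lower ones both ferritin chains. Among barcodes under 30% mitochondrial UMIs 7 were higher, with Slc40a1 at a log2 ratio of 1.22, and none was lower, with Fth1 at -0.60 and Ftl1 at -0.31. The median log2 ratio of all genes was 0.71 at this setting, and the share of all genes past 2-fold is not given for it. No hepatocyte cluster was shared between the libraries. The 3 control clusters held 1076, 1278 and 161 barcodes, and the 3 tetYAP 4W clusters held 260, 78 and 486, the last led by the genes of pancreatic enzymes Pnlip, Ctrb1 and Prss2. Cluster names were looser than the marker classes. A cluster of 223 control barcodes was named stellate or mesenchymal, a class that held 4 control barcodes. In the whole hepatocyte class, of 9589 genes with at least 20 UMIs, 12.4% were 2-fold or more higher and 18.5% lower. The median log2 ratio of the 10 genes was 1.62 and that of all genes was -0.27. Over all barcodes, 7 of the 10 genes were 2-fold or more higher and none was lower, against 36.1% and 7.83% of 11526 genes. Slc40a1 joined the higher ones there, a sum in which macrophage barcodes went from 1.004% to 18.9% of the library. The plot of ratios by class shows which genes moved alike in each class.

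**Figure D1:**
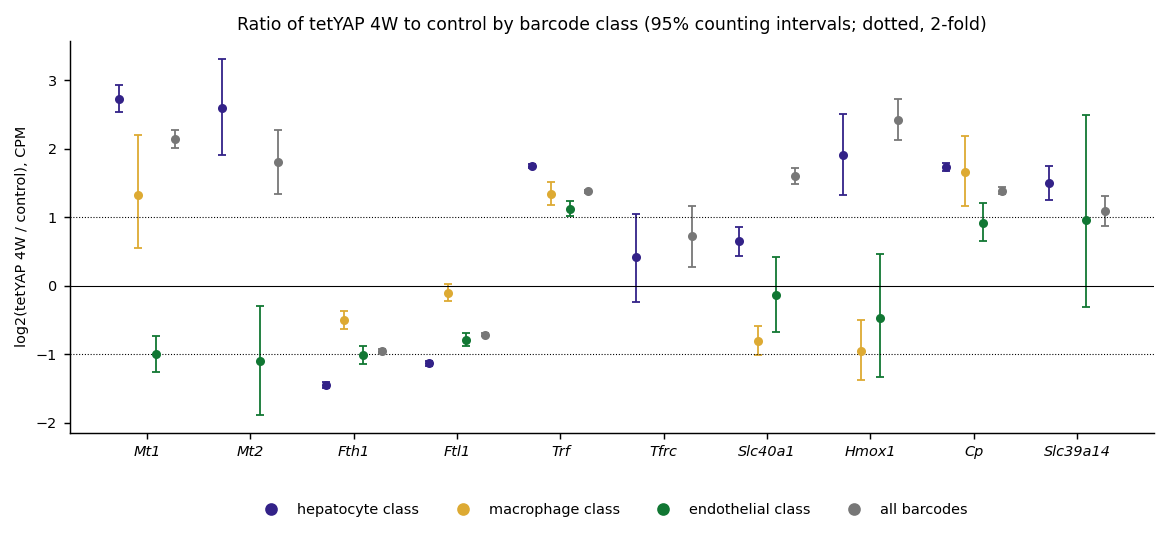
Log2 ratio of tetYAP 4W to control CPM for each of the 10 genes (vertical axis) in the hepatocyte, macrophage and endothelial classes and over all barcodes, with 95% counting intervals and dotted lines at 2-fold; ratios with under 4 UMIs in either library are not drawn. Trf and Cp lie above 0 in each class drawn, whereas Mt1 and Mt2 lie above 0 in the hepatocyte class and below 0 in the endothelial class.

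Metallothionein mRNA was higher in the tetYAP 4W library in the hepatocyte class and lower in the endothelial class. Mt1 had 0.114 UMIs per hepatocyte-class barcode in the control (0.101 to 0.127) against 1.02 in the tetYAP 4W library (0.951 to 1.10), a log2 ratio of 2.73 on the CPM scale (2.54 to 2.92). Mt2 had 0.00955 UMIs per barcode (0.00629 to 0.0139) and 0.0785 (0.0591 to 0.102), a log2 ratio of 2.59 (1.90 to 3.31). The share of hepatocyte-class barcodes with a Mt1 UMI was 9.83% in the control against 60.3% in the tetYAP 4W library, and 3.68% and 19.7% after each barcode was thinned to 1000 UMIs.

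In the tetYAP 4W library the hepatocyte class as a whole did not stand out for Mt1. Lymphocyte barcodes, taken here as the background, had 0.964 UMIs each (0.808 to 1.14), 57.6% of them had a UMI (18.0% after thinning), and the log2 ratio of the hepatocyte class to lymphocytes was 0.20 (-0.06 to 0.48). Over all its barcodes the Mt1 level of the hepatocyte class was therefore not separable from that of lymphocytes. Its 94 barcodes under 30% mitochondrial UMIs, however, had 1.67 UMIs each (1.42 to 1.95), or 484 CPM (411 to 565), above the 209 CPM of lymphocytes (175 to 248), whose median mitochondrial share was 24.4%. Macrophage barcodes had 1.26 UMIs (1.14 to 1.40) and erythroid barcodes 1.31 (0.962 to 1.75). For Mt2 the hepatocyte class and lymphocytes differed by a log2 ratio of 1.24 (-0.07 to 2.92), which also includes 0. In lymphocytes themselves Mt1 went from 1 UMI in 8 control barcodes to 134 in 139, a log2 ratio of 2.87 (0.37 to 8.18).

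Of the classes compared, the endothelial class held the highest metallothionein levels in the control. Mt1 had 3.24 UMIs per endothelial barcode (2.81 to 3.71), 19.1-fold above the hepatocyte class on the CPM scale, and 87.3% of the 63 barcodes had a UMI, with a highest value of 21. Mt2 had 0.397 (0.257 to 0.586), a log2 ratio of 4.80 to the hepatocyte class (3.95 to 5.64). Of the Mt1 UMIs of the control, 35.4% lay in endothelial barcodes, which held 3.09% of all UMIs. Endothelial Mt1 of the tetYAP 4W library was 1.82 UMIs per barcode (1.62 to 2.04) and Mt2 was 0.208 (0.145 to 0.290). The log2 ratios of tetYAP 4W to control were -1.004 (-1.26 to -0.74) and -1.10 (-1.88 to -0.30). The class drew on different clusters in the libraries. An endothelial cluster led by Bmp6 and Col13a1 held 55 control and 2 tetYAP 4W barcodes, and one led by Cd93 and Wnt2 held 5 and 125. A further cluster named endothelial, led by Ggact and Cyp26b1, held 125 control and 0 tetYAP 4W barcodes. That is more than the 63 control barcodes of the class, so cluster names and marker classes differ. After thinning, 33.3% and 26.8% of endothelial barcodes had a Mt1 UMI (22.0 to 46.3 and 20.3 to 34.2), and these intervals overlap. Endothelial Mt1 still lay above lymphocytes there, by a log2 ratio of 0.73 (0.43 to 1.03), and Mt2 by 2.34 (0.99 to 4.05). Among the 63 control endothelial barcodes, 19 held both genes, 36 Mt1 alone and none Mt2 alone.

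**Figure D2:**
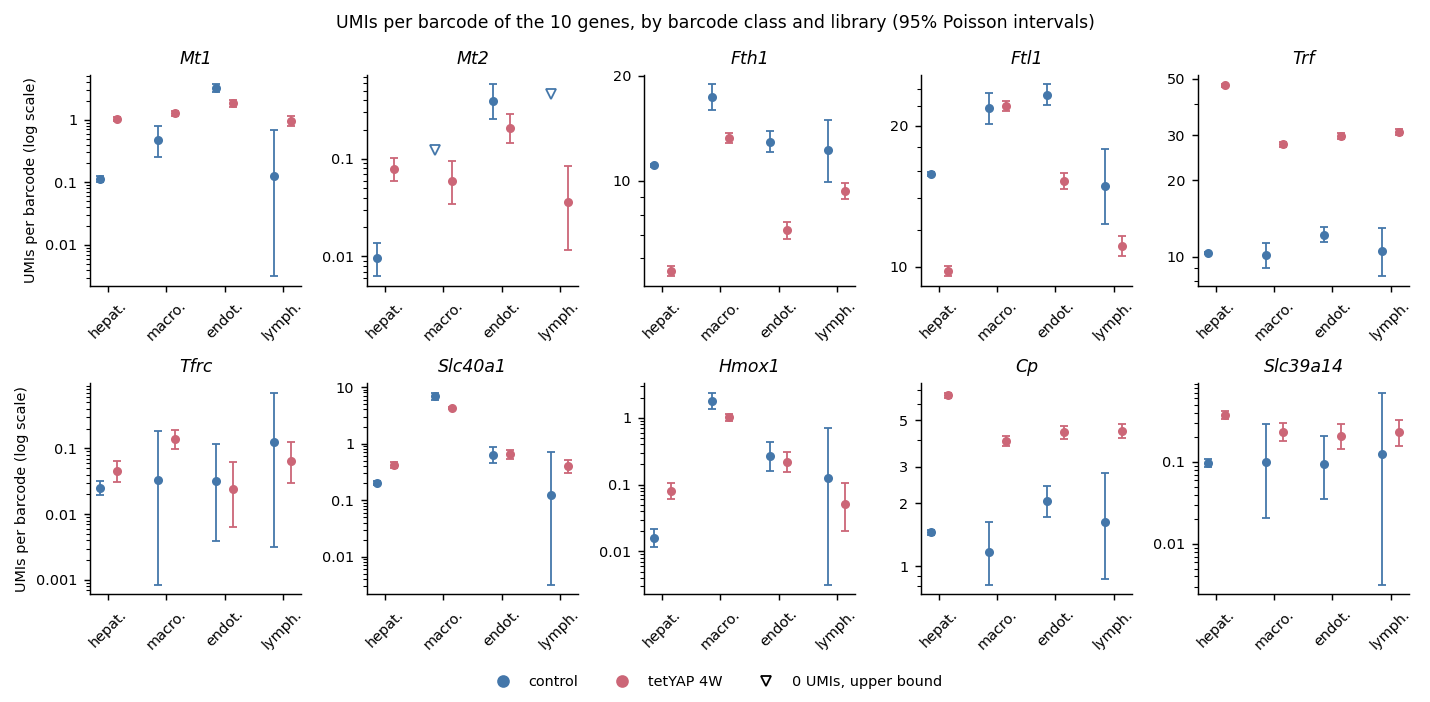
UMIs per barcode (log axis) of each gene in the hepatocyte, macrophage, endothelial and lymphocyte classes of the control (blue) and tetYAP 4W (red) libraries, with 95% Poisson intervals and open triangles at the upper bound of sums of 0. Mt1 and Mt2 peak in endothelial and Slc40a1 and Hmox1 in macrophage barcodes, while Trf lies between 10.1 and 12.2 in the control classes.

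Ferritin was lower in the tetYAP 4W hepatocyte class. Its chains are encoded on chromosome 19 at 9980600 to 9985111 (Fth1) and on chromosome 7 at 45457944 to 45459886 (Ftl1). Fth1, the chain with ferroxidase activity, had 11.1 UMIs per barcode in the control (10.9 to 11.2; median 11, quartiles 8 and 13) against 5.51 in the tetYAP 4W library (5.34 to 5.69; median 5, quartiles 3 and 7), a log2 ratio of -1.45 (-1.4999 to -1.40). Ftl1, the light chain, had 15.8 (15.6 to 15.9) and 9.78 (9.55 to 10.02), a log2 ratio of -1.13 (-1.17 to -1.10). The middle parts of the barcode distributions of Fth1 did not overlap, in that the upper quartile of the tetYAP 4W barcodes lay below the lower quartile of the control. Lymphocytes had 12.2 Fth1 UMIs in the control (9.95 to 14.9) against 9.35 after induction (8.85 to 9.88), so that in the tetYAP 4W library the hepatocyte class lay below them, by a log2 ratio of -0.65 (-0.74 to -0.55), while for Ftl1, at 11.1 in those lymphocytes, the ratio was -0.06 (-0.14 to 0.02). The sum of both chains gave a log2 ratio of -1.26 (-1.28 to -1.23). The mitochondrial share moved with it. Among barcodes under 30% mitochondrial UMIs, of which the tetYAP 4W hepatocyte class had 94, Fth1 was 11.8 and 8.79 UMIs per barcode, Ftl1 was 16.8 and 15.3, and the log2 ratio of the sum was -0.42. Both chains have copies elsewhere in the genome, so reads that map to several copies could be missing from these counts.

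Macrophage ferritin stayed closer to the control. Fth1 had 17.4 UMIs per control macrophage barcode (15.9 to 18.9) against 13.3 after induction (12.8 to 13.7), and Ftl1 had 21.8 (20.2 to 23.5) and 22.0 (21.5 to 22.6). The sum gave a log2 ratio of -0.27 (-0.35 to -0.18), and that of Ftl1 alone, -0.10 (-0.22 to 0.02), was within counting error. In endothelial barcodes the sum gave -0.87 (-0.94 to -0.79) and in lymphocytes -0.49 (-0.69 to -0.28). Within the tetYAP 4W library macrophages had the higher ferritin, by a log2 ratio of 1.15 to the hepatocyte class (1.11 to 1.19) and of 0.85 to lymphocytes (0.79 to 0.91). In the control the former ratio was 0.16 (0.08 to 0.25). With totals that skipped mitochondrial genes and the 50 genes of highest count, the ratio within the tetYAP 4W library was 0.23, and it was 0.55 among barcodes under 30% mitochondrial UMIs.

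The plasma carriers were higher in the hepatocyte, macrophage, endothelial and lymphocyte classes of the tetYAP 4W library. Trf had 10.3 UMIs per hepatocyte-class barcode in the control (10.2 to 10.5; median 10) against 47.2 in the tetYAP 4W library (46.7 to 47.7; median 42, quartiles 29 and 58), a log2 ratio of 1.75 (1.72 to 1.77). Cp had 1.45 (1.41 to 1.495) and 6.57 (6.38 to 6.76), a log2 ratio of 1.74 (1.67 to 1.80). Trf lies on chromosome 9 at 103208876 to 103230286 and Cp on chromosome 3 at 19956933 to 20009750. For Trf the lower quartile of the tetYAP 4W barcodes lay above the upper quartile of the control, which was 13. In lymphocyte barcodes, which do not make transferrin, Trf went from 10.5 (8.38 to 13.0) to 30.9 (29.95 to 31.8) and Cp from 1.62 (0.865 to 2.78) to 4.44 (4.10 to 4.80). In the control Trf did not differ between the hepatocyte class and lymphocytes beyond counting error as UMIs per barcode, and as CPM the log2 ratio of hepatocyte class to lymphocytes was 0.46 (0.15 to 0.79). Within the tetYAP 4W library the hepatocyte class was above lymphocytes by a log2 ratio of 0.73 for Trf (0.68 to 0.78) and 0.68 for Cp (0.56 to 0.81).

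Set against albumin (Alb), another secreted hepatocyte product, both carriers kept nearly 1 ratio over the classes of a library. Trf had 11.7 UMIs per 100 Alb UMIs in control hepatocyte-class barcodes and between 10.8 and 12.1 in the other classes of the control plotted. In the tetYAP 4W library it had 24.2 in the hepatocyte class and between 19.8 and 21.5 in macrophage, endothelial and lymphocyte barcodes. Cp went from 1.65 to 3.38 in the hepatocyte class and from 1.68 to 2.85 in lymphocytes. Trf and Cp were thus higher relative to Alb too, also in classes that hold them as background. Ferritin behaved differently on this scale, with Fth1 at 12.6 and 2.83 in the hepatocyte class and at 20.7 and 10.3 in macrophages.

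**Figure D3:**
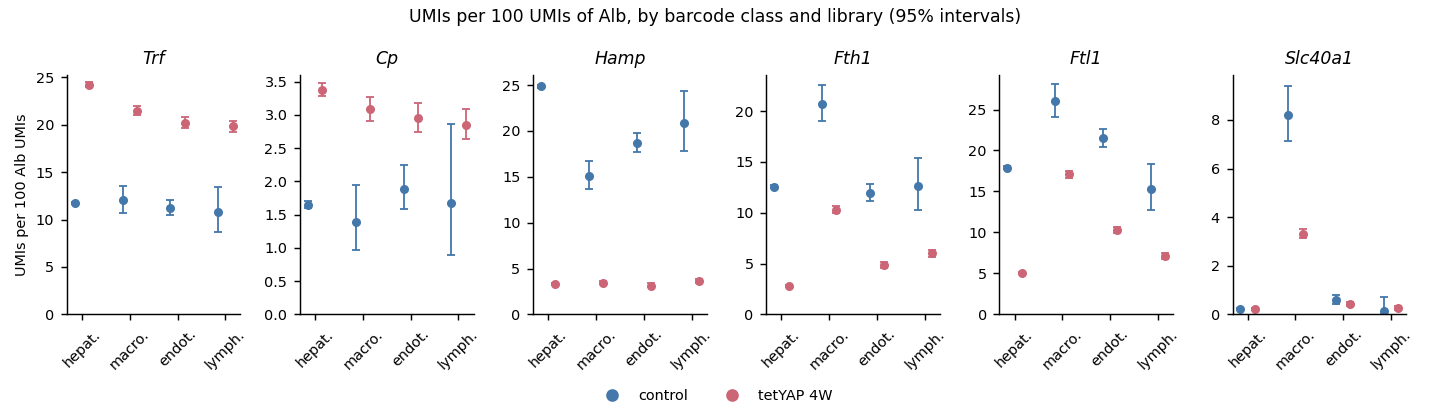
UMIs per 100 Alb UMIs (vertical axes from 0) of Trf, Cp, Hamp, Fth1, Ftl1 and Slc40a1 in the hepatocyte, macrophage, endothelial and lymphocyte classes of the control (blue) and tetYAP 4W (red) libraries, with 95% intervals. Trf and Cp are above and Hamp is below the control in each class, and Slc40a1 is highest in macrophages, at 8.20 and 3.32.

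Of the uptake genes, Tfrc (chromosome 16, 32608896 to 32632794) was near the detection limit and Slc39a14 (chromosome 14, 70303467 to 70351452) was higher in the tetYAP 4W hepatocyte class. Tfrc had 71 UMIs in 2827 control and 32 in 701 tetYAP 4W hepatocyte-class barcodes, a log2 ratio of 0.42 (-0.23 to 1.04), and no difference was detectable at this depth. In tetYAP 4W macrophages it was at 0.139 UMIs per barcode (0.0992 to 0.189) against 0.0456 in the hepatocyte class (0.0312 to 0.0644) and 0.0647 in lymphocytes (0.0296 to 0.123). After thinning, 1.74% of macrophage and 0.999% of hepatocyte-class barcodes had a Tfrc UMI, shares of few barcodes whose intervals overlap. Slc39a14 had 0.0973 UMIs per hepatocyte-class barcode in the control (0.0861 to 0.109) against 0.374 in the tetYAP 4W library (0.330 to 0.422), a log2 ratio of 1.497 (1.25 to 1.75). Lymphocytes of the tetYAP 4W library had 0.230 (0.157 to 0.325), and the log2 ratio of the hepatocyte class to them was 0.82 (0.28 to 1.39). Among barcodes under 30% mitochondrial UMIs the log2 ratio of tetYAP 4W to control was 2.92.

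Slc39a14 followed nuclear RNA within the hepatocyte class. Malat1, a long non-coding RNA kept in the nucleus, was under 5 UMIs in 2639 of the control and 561 of the tetYAP 4W hepatocyte-class barcodes and reached 20 or more in 20 and 40. From the lowest to the highest group of barcodes by Malat1, Slc39a14 went from 27.1 to 202 CPM in the control and from 64.4 to 363 CPM in the tetYAP 4W library. The interval of the control value, 121 to 315, lies apart from that of the lowest group, 23.6 to 30.9. Mt1 was 36.7 and 21.2 CPM at these ends in the control and 244 and 208 in the tetYAP 4W library, each pair with overlapping intervals. Among the barcodes with 20 or more Malat1 UMIs the log2 ratio of tetYAP 4W to control was 0.85 for Slc39a14, 1.5 for Cp, 1.57 for Trf, 3.29 for Mt1 (2 control UMIs) and -0.27 for the ferritin sum. Trf was at 11412 CPM in the lowest and 7562 CPM in the highest of these groups of the tetYAP 4W library.

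**Figure D4:**
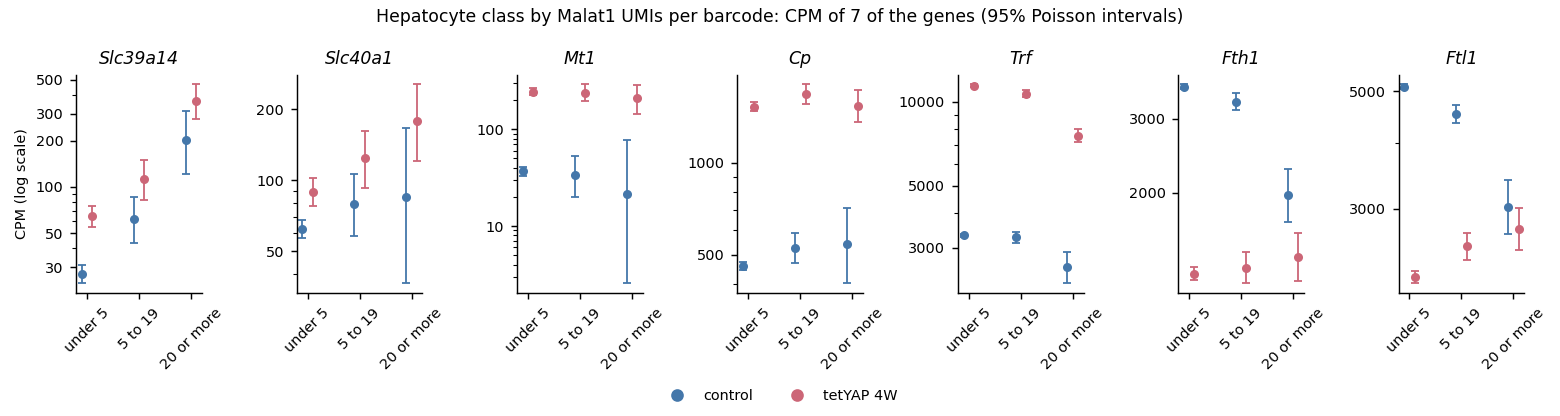
CPM (log axes, which differ between panels) of 7 genes in hepatocyte-class barcodes grouped by Malat1 UMIs (under 5, 5 to 19, 20 or more) in the control (blue) and tetYAP 4W (red) libraries, with 95% Poisson intervals. Slc39a14 is higher in groups with more Malat1 in both libraries, while the Fth1 and Ftl1 values of the libraries come closer together.

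Ferroportin and haem oxygenase were highest in macrophages in both libraries. Slc40a1 lies on chromosome 1 at 45908070 to 45926532 and Hmox1 on chromosome 8 at 75093618 to 75100593. Slc40a1 had 6.87 UMIs per control macrophage barcode (5.96 to 7.87; median 5) and 0.198 in the hepatocyte class (0.182 to 0.216), a 26.6-fold difference on the CPM scale. In the tetYAP 4W library macrophages had 4.27 (4.04 to 4.52; median 2.5, quartiles 1 and 6) and the hepatocyte class 0.422 (0.376 to 0.473), a 9.73-fold difference. Lymphocytes of that library had 0.396 (0.298 to 0.515), or 85.8 CPM. Over all its barcodes the hepatocyte class was not separable from them, with a log2 ratio to lymphocytes of 0.21 (-0.21 to 0.65). Its 94 barcodes under 30% mitochondrial UMIs had 148 CPM of Slc40a1 (109 to 196), an interval that overlaps that of lymphocytes. Its 40 barcodes with 20 or more Malat1 UMIs had 178 CPM (120 to 255). Hmox1 had 1.80 UMIs per control macrophage barcode (1.35 to 2.35) and 0.0159 in the hepatocyte class (0.0116 to 0.0213), 86.8-fold apart. After 4 weeks of induction it had 1.01 (0.898 to 1.13) and 0.0813 (0.0616 to 0.105), a log2 ratio of 3.58, and lymphocytes had 0.0504 (0.0202 to 0.104).

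Both genes were lower in macrophages of the tetYAP 4W library. The log2 ratio to the control was -0.80 for Slc40a1 (-1.02 to -0.58) and -0.95 for Hmox1 (-1.37 to -0.50), with 90.0% and 79.5% of barcodes holding a Slc40a1 UMI and 56.7% and 43.4% a Hmox1 UMI. Thinned to 1000 UMIs, these shares were 70.0% and 48.3% for Slc40a1 and 26.7% and 16.0% for Hmox1. The control class holds only 30 barcodes, and for both genes the intervals of the thinned shares overlap between the libraries. Just under the class minimum, at 5 to 9 macrophage marker UMIs, lay 322 tetYAP 4W barcodes against 8 of the control. With the minimum doubled, the log2 ratio of tetYAP 4W macrophages to the hepatocyte class went from 3.28 to 3.54 for Slc40a1. For Hmox1 it went from 3.58 to 3.85. Macrophages were not compared between the libraries at that minimum. The part of the cut in the lower levels was thus not tested. Macrophage markers set the class, so their levels in it are a description and no check of the Slc40a1 and Hmox1 values. C1qa, a complement chain, was at 8.07 and 13.2 UMIs per macrophage barcode, Clec4f, a receptor of Kupffer cells, at 6.37 and 9.64, and Marco, a scavenger receptor, at 0.0667 and 1.06. All 12 macrophage markers had the higher mean in the tetYAP 4W library except Timd4, at 1.13 and 1.09. Within tetYAP 4W macrophages 118 of 288 barcodes held both Slc40a1 and Hmox1, 111 held Slc40a1 alone and 7 Hmox1 alone.

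In the hepatocyte class the same genes went the other way, with log2 ratios of tetYAP 4W to control of 0.64 for Slc40a1 (0.44 to 0.85; 0.225 and 0.217 UMIs per 100 Alb UMIs) and 1.91 for Hmox1 (1.32 to 2.51). Macrophage RNA moved with them there. C1qa went from 0.0198 to 0.595 UMIs per hepatocyte-class barcode and Clec4f from 0.0138 to 0.444, and in tetYAP 4W lymphocytes they were at 0.604 and 0.417. The part of this RNA in the values of Slc40a1 and Hmox1 was not tested. In endothelial barcodes Hmox1 was at 0.270 (0.157 to 0.432) and 0.220 (0.155 to 0.304), above the hepatocyte class in both libraries, by log2 ratios of 3.50 (2.61 to 4.34) and 1.13 (0.49 to 1.75).

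Macrophages held, within the tetYAP 4W library, 18.8% of all UMIs, 67.0% of those of Slc40a1 (64.8 to 69.1), 64.2% of those of Hmox1 (59.6 to 68.7), 42.1% of those of Tfrc and 31.0% of those of Fth1. The hepatocyte class held 44.0% of all UMIs and 57.7% of those of Trf, 56.5% of those of Cp and 59.8% of those of Slc39a14. In the control, where macrophages held 1.28% of all UMIs, they held 24.2% of the Slc40a1 and 45.4% of the Hmox1 UMIs.

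**Figure D5:**
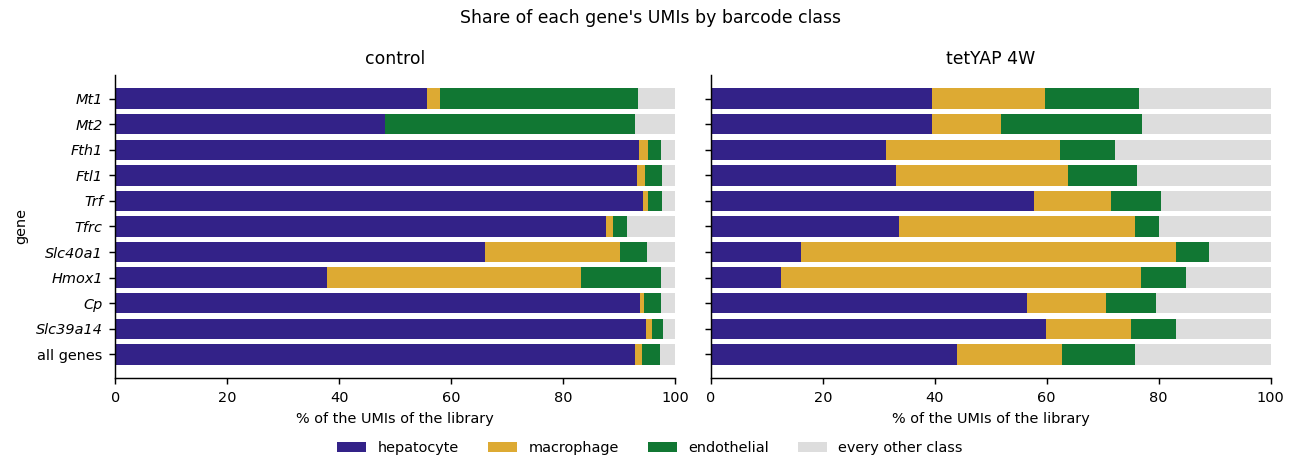
Share of the UMIs of each gene and of all genes (horizontal axis, percent) that lay in hepatocyte, macrophage, endothelial and every other barcode class of each library. Slc40a1 and Hmox1 exceed the share of all genes in macrophages of both libraries, and Mt1 and Mt2 do so in endothelial barcodes.

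Between macrophages and the hepatocyte class of the tetYAP 4W library, 5 of the 10 genes were 2-fold or more higher in macrophages and none was lower. They were Fth1, Ftl1, Tfrc, Slc40a1 and Hmox1. With TMM factors of edgeR 2 were higher, Slc40a1 (2.36) and Hmox1 (2.66), and 4 were lower, Mt2 (-1.39), Trf (-1.75), Cp (-1.70) and Slc39a14 (-1.66). Totals without mitochondrial genes and the 50 genes of highest count gave the same split. The median log2 ratio of all genes was 0.009 with TMM factors and 0.015 with these totals. The share of all genes past 2-fold is not given for either scaling. On the CPM scale, of 8571 genes, 47.1% were 2-fold or more higher in macrophages and 2.68% lower, so the count of 5 lies near the background. The median log2 ratio was 0.68 for the 10 genes and 0.93 for all genes, and relative to the latter the ferritin ratios of 1.21 and 1.12 were small and those of Slc40a1 (3.28, 3.10 to 3.47) and Hmox1 (3.58, 3.17 to 4.02) large. Trf at -0.82 (-0.86 to -0.79), Cp at -0.78 (-0.87 to -0.69) and Slc39a14 at -0.74 (-1.15 to -0.35) were lower in macrophages, within 2-fold on the CPM scale. Mt1 was at 0.25 (0.06 to 0.43) and Mt2 at -0.47 (-1.34 to 0.34), neither past 2-fold. The Mt1 and Mt2 sum, at 0.21, was -0.78 among barcodes under 30% mitochondrial UMIs and -0.72 with TMM factors, so its direction depends on the scaling.

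Of 82 further genes of metal and haem handling, 69 had at least 20 UMIs in the hepatocyte class, of which 10 were 2-fold or more higher in the tetYAP 4W library and 17 lower. Over all genes the shares were 12.4% and 18.5%, and the counts of the list lie near them. Its median log2 ratio was -0.34. Among genes of systemic iron control 1 of 14 was higher and 1 was lower, and these were the hepcidin genes. Hamp had 61813 UMIs in the control against 4531 in the tetYAP 4W hepatocyte class, a log2 ratio of -2.20 (-2.25 to -2.16), while its paralogue Hamp2 had 281 and 1779, a log2 ratio of 4.23 (4.05 to 4.42). The genes are related in sequence, so reads that fit both could be lost or shared. Sex and YAP induction cannot be told apart for them either. Hamp was also lower per 100 Alb UMIs in each class, at 24.8 and 3.32 in the hepatocyte class and at 20.9 and 3.63 in lymphocytes.

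In the uptake and export group 4 of 9 genes were higher and 2 were lower. Slc11a1, the metal transporter of the phagosome, gave 3.68 (2.37 to 5.25) from 6 and 26 UMIs, and Abcg2, a porphyrin exporter, gave -2.66 (-3.13 to -2.23) from 844 and 45. In storage and sensing none of 7 genes passed 2-fold, and their median was -0.72. In the haem group 2 of 15 were higher, among them the haemoglobin receptor Cd163 (3.07, 1.66 to 4.70, from 6 and 17 UMIs), and 5 were lower. Slc11a1 and Cd163 are macrophage genes. They were 4.003 (3.40 to 4.66) and 4.54 (3.82 to 5.35) higher on the log2 scale in tetYAP 4W macrophages than in the hepatocyte class, so the macrophage RNA noted above moves with them. In the mitochondrial group none of 7 was higher and 3 were lower, with Glrx5, a part of iron-sulphur cluster assembly, at -1.72 (-2.004 to -1.44). Of the zinc and copper genes 1 of 9 was higher, the copper pump Atp7b at 1.79 (1.37 to 2.22), and 3 were lower. Lcn2, which binds bacterial iron carriers, was the only measured gene of iron withholding, at 3.92 (2.92 to 5.06) from 10 and 51 UMIs. Among oxidative stress genes 1 of 7 was higher and 3 were lower, with Gclc, of glutathione synthesis, at -1.60 (-1.82 to -1.39).

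Within the tetYAP 4W library 24 of 72 measured genes of these groups were 2-fold or more higher in macrophages than in the hepatocyte class and 5 were lower, with a median of 0.45. Over all genes 47.1% were higher and 2.68% lower, with a median of 0.93. Among those with at least 100 UMIs over both libraries the highest besides Cd163 and Slc11a1 was Id1, a target of bone morphogenetic protein signals, at 2.41 (2.01 to 2.83). The lowest were the manganese exporter Slc30a10 (-1.34, -2.03 to -0.71), Atp7b (-1.21, -1.9997 to -0.50) and Tmprss6, a protease that restrains hepcidin (-1.17, -1.47 to -0.88).

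The genes most like each of 5 members were sought over 11 class and library sums of at least 20 barcodes, by Pearson correlation of log2(CPM + 1). The sums of a library share its RNA and depth, so the values are a description. Trf was most like C3 (0.99), Cp (0.97) and Prlr (0.97). Hmox1 was most like the lysosomal genes Ctsb (0.96), Psap (0.94) and Hexa (0.93), and Slc40a1 was most like Gbp2b (0.94), BC005537 (0.94) and Nampt (0.93). Ftl1 was most like Gpx1 (0.89), Fth1 (0.85) and Shtn1 (0.85), and Mt1 like Gas6 (0.90), Cd36 (0.89) and Nid1 (0.78). Among the members themselves, Slc40a1 with Hmox1 gave 0.92 and Mt1 with Mt2 0.77, while Fth1 with Trf gave -0.68.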

How the data were processed

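Hepatocytes of 1 control and 1 tetYAP 4W library were profiled on 10x Chromium, and the table that the authors deposited holds UMI counts for each gene in each barcode, not normalized. Per the labels and the study's methods, reads were processed with Cell Ranger and Seurat 3 against mm10, barcodes were limited to 3000 per condition and those above 7500 UMIs were excluded. All 4513 barcodes left were used.

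The members, the pathway list and the cell type markers were chosen with earlier results of these data known. The scoring rule for classes was set after the data were seen: at least 10 UMIs from at least 3 markers of 1 class, with barcodes of more than 1 class left out as mixed. The hepatocyte class had under 10 macrophage marker UMIs and under 5 of every other class, and barcodes in between were left out. No doublet caller was run, and doublets with hepatocytes cannot be told from shared RNA.

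UMIs were summed per library and class and divided by all UMIs of the same barcodes (CPM). Sums carry exact Poisson intervals, shares Clopper-Pearson intervals and ratios exact conditional binomial intervals, all at 95% and for counting error only. UMIs after PCR stand for molecules, and the libraries were not replicated. No ratio was given where both sums were at or under 3 UMIs, and genes had to reach 20 UMIs over the compared sums. For shares, barcodes were thinned to 1000 UMIs, which left out 25 control barcodes. Ratio intervals were tested on simulated counts. Named genes were all members, and of the pathway list, among genes with at least 100 UMIs over all barcodes of both libraries, the 5 highest and 5 lowest between libraries and the 3 highest and 3 lowest between classes, and the 3 genes most like each of Mt1, Ftl1, Trf, Hmox1 and Slc40a1; 1 gene that this rule names is not reported here. Promoters and positions are those of RefSeq on GRCm38.p6. Python 3.11.15, scanpy 1.11.5 and, for TMM factors as a normalization only, edgeR 4.0.16 were used.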

Additional observations from a re-analysis of the deposited data

Results flagged for a closer look

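The effect of the tetYAP 4W library over the control had opposite signs in 2 classes, with counting intervals that left out 0 in both, for 4 of the 10 genes. The difference between classes was not tested, since each group holds 1 library. For Mt1 the log2 ratio of the hepatocyte class exceeded that of the endothelial class by 3.73, and for Mt2 by 3.70. The hepatocyte ratio of Mt1 rests on 321 and 718 UMIs and the endothelial one on 204 and 306. As given above, neither gene was separable from lymphocytes over the whole tetYAP 4W hepatocyte class. The intervals of the thinned endothelial Mt1 shares overlapped between the libraries. For Slc40a1 the hepatocyte ratio exceeded the macrophage ratio by 1.45, and for Hmox1 by 2.86, with macrophage RNA higher in the tetYAP 4W hepatocyte class as given above and its part not tested. The part of the marker cut in the macrophage ratios was not tested either.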

How the results depend on the processing

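No paired analysis was possible because each group holds 1 library, and for the same reason no replicate could be left out. Of the log2 ratios of single genes and sums over all alternatives, none of the values past 2-fold changed sign.
For the metallothionein sum in the hepatocyte class (2.72), the log2 ratio of tetYAP 4W to control was 2.94 with classes from Leiden clusters, 3.61 without barcodes above 30% mitochondrial UMIs, 3.30 with mitochondrial genes and the 50 most abundant genes left out of the total, 3.0 with TMM factors, 2.53 after thinning and 3.56 in barcodes with at least 20 Malat1 UMIs. This last setting was chosen after seeing the data. For the ferritin sum (-1.26) the same settings gave -1.21, -0.42, -0.68, -0.98, -1.12 and -0.27, and equal weight for each barcode gave -1.15. The ferritin difference thus fell short of 2-fold in 4 of them, and the all-gene median moved too, from -0.27 to 0.71 without the barcodes above 30%. Within the tetYAP 4W library, ferritin in macrophages over the hepatocyte class (1.15) was 1.10 with clusters, 1.21 with the marker minimum doubled, 0.55 without barcodes above 30%, 0.23 with reduced totals, 0.23 with TMM factors, 1.02 with equal weights, 0.97 after thinning and 0.94 in barcodes with at least 20 Malat1 UMIs. The metallothionein sum (0.21) was -0.78, -0.71 and -0.72 without barcodes above 30%, with reduced totals and with TMM factors. The members past 2-fold in the hepatocyte class numbered 8. Among barcodes with at least 20 Malat1 UMIs they numbered 4, namely Mt1, Trf, Cp and Slc40a1 (1.07), the last of which was not among the 8. There Fth1 (-0.49), Ftl1 (-0.14) and Slc39a14 (0.85) lay within 2-fold, and Mt2 and Hmox1 had 0 UMIs in the control. Between macrophages and the hepatocyte class the members past 2-fold numbered 5, and 2 after thinning. The shares of all genes past 2-fold given above are those of the main setting only. Tfrc, Mt2 and Hmox1 are limited by depth, at under 100 UMIs in either hepatocyte class.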

Other observations

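Ferritin was also read in smaller classes of the tetYAP 4W library. Neutrophil or monocyte barcodes (23) had 19 Fth1 UMIs each (17.3 to 20.9) and 22.6 Ftl1 UMIs (20.7 to 24.6), and 12.1 Fth1 UMIs per 100 Alb UMIs against 10.3 in macrophages, while Ftl1 was at 14.4 and 17.1 on this scale. Their Slc40a1 level was 0.565 (0.301 to 0.967) and thus close to the 0.396 of lymphocytes, and Hmox1 was 0.348 (0.150 to 0.685). Erythroid barcodes (35) had 7.74 Fth1 UMIs (6.85 to 8.72) and a single Tfrc UMI. Per 100 Alb UMIs their Fth1 was at 5.74 (5.07 to 6.46), close to the 6.01 of lymphocytes (5.68 to 6.34). Within macrophages of the tetYAP 4W library the correlation of Fth1 with Ftl1 over 288 barcodes thinned to 1000 UMIs was 0.43, and that of Slc40a1 with Hmox1 was 0.06, where barcodes of 1 library share its RNA.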
